A study of Mus musculus with 12 samples.

Results

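Adcyap1r1 encodes PAC1, the receptor of the neuropeptide PACAP, and is described here together with 8 genes of the same peptide system and of neuroendocrine cells. The 9 genes are Adcyap1r1, Adcyap1, Vipr1, Vipr2, Chga, Chgb, Syp, Ncam1 and Insm1, and all 9 were found among the 19937 genes with a probe set of exactly 1 symbol. Where a gene had several probe sets, the one brightest on average across all 12 tumours was read. Adcyap1r1 was selected on its measured difference between host genotypes in these same tumours, so its own difference is given as a description without a test. The other 8 belong to the peptide system or to neuroendocrine cells, and they too were chosen with earlier results of these data known.

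Each tumour came from 50000 TRAMP-C2Re3 cells, a carcinoma line of the mouse prostate, placed in the prostate of a C57BL6 mouse and taken out on day 60. The mouse was p62 KO (6 tumours) or wild type, WT (6 tumours), and the labels number the mice within each genotype. Both genotypes received the same line, so the KO of p62, the product of Sqstm1, lies in the host cells of a tumour and not in the injected cells. A further host genotype named in the growth protocol, p62/IL-6 DKO, is not analysed here. Values are log2 intensities of 1 array per tumour, and whole tumour RNA was measured.

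PACAP and the related peptide VIP bind class B G protein-coupled receptors. PAC1 prefers PACAP, whereas the receptors encoded by Vipr1 and Vipr2 bind both peptides. All 3 receptors raise cyclic AMP, which acts through protein kinase A and the transcription factor CREB. Neuroendocrine cells are scattered in the normal prostate epithelium, store peptides with chromogranins in dense-core granules, and appear in some prostate carcinomas, among them tumours of the TRAMP mouse model.

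The promoters of Adcyap1r1 and of both chromogranin genes are shown because CREB binds the motif TGACGTCA and its core TGACG. Each line gives the 250 bases before the annotated transcription start from RefSeq, build GRCm38.p6, plus strand, with every TGACG on either strand in capitals.
Adcyap1r1, chr6:55451728-55451977: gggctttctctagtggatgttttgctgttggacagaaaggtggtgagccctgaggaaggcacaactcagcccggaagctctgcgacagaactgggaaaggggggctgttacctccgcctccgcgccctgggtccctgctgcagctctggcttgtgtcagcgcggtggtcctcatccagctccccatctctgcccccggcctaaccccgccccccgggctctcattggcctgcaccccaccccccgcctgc
Chga, chr12:102554691-102554940: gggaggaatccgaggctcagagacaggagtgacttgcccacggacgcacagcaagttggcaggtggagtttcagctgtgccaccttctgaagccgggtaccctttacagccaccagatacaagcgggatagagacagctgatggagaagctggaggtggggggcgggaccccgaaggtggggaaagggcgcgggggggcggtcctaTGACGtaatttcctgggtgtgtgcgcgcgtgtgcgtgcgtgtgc
Chgb, chr2:132781392-132781641: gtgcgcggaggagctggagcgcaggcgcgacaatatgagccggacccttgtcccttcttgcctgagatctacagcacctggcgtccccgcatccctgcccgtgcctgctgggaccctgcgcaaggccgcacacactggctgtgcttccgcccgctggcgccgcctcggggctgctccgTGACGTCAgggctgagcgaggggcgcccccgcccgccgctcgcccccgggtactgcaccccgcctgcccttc
In Chga the match begins 44 bases before the start. In Chgb it begins 72 bases before the start and is part of a full TGACGTCA, in which the matches of both strands overlap. The core was searched on both strands in 32851 promoters of this length and found in 17.8% of them, and the full motif in 1.55%. Of the 7 genes with a promoter entry, 4 hold the core, namely Adcyap1, Vipr1, Chga and Chgb, and the window of Adcyap1r1 does not hold these letters. A match is a description of the letters only.

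The arrays were similar in median, between 6.21 and 6.44, but not in spread. KO hosts 2 and 3 and WT hosts 2 and 5 had interquartile ranges of 2.15 to 2.59, against 2.70 to 2.95 for the other 8 arrays. Of all 12 tumours, the pair from KO hosts 2 and 3 stood highest in 31.6% of the 7048 probe sets of lowest mean level and in 41.9% of the next 7048, and lowest in 45.5% of the 7048 of highest mean level. For that reason values are also given without these arrays. The limma comparison of hosts, with adjusted p under 0.05 as its threshold, called 1 of 28192 probe sets, or 0.00355%, and 2.39% had an unadjusted p under 0.05. Sqstm1, the gene deleted in KO hosts, had 8.17, 8.76 and 9.22 (lowest, median and highest) in KO hosts, against 8.55, 8.91 and 9.16 in WT hosts, a difference of -0.16 (SE 0.17, limma adjusted p = 0.9935). The groups overlapped widely, and since whole tumours include RNA of the injected cells, this level does not check the host labels. As to the tissue, all 7 measured prostate and seminal gland secretion genes, such as Pbsn, had means over the 12 tumours below the lower quartile of probe sets. Single tumours stood higher. In WT host 4 Sbp was at 6.05 and Spink1 at 5.82, against 3.07 to 3.66 and 3.21 to 4.205 in the other tumours. Svs2 was highest in KO hosts 3, 6 and 2, at 5.29, 5.09 and 5.03.

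The level of Adcyap1r1 was lower in tumours of p62 KO hosts. The lowest, median and highest log2 levels were 6.16, 7.22 and 7.62 in KO hosts, against 7.60, 8.08 and 8.30 in WT hosts. The groups overlapped by a single pair, since KO host 6, at 7.62, lay just above WT host 5, at 7.60, and 5 of the 6 KO tumours lay below every WT tumour. Means were 7.10 ± 0.50 in KO hosts and 8.0 ± 0.32 in WT hosts (SD, n = 6 each), a log2 difference of -0.90, or 1.87-fold lower. KO host 4 was the lowest tumour, and without it the difference was -0.71. It was -0.98 without KO hosts 2 and 3 and -1.01 without the 4 narrow arrays. In RNA of whole tumours, fewer cells of a type and less RNA per cell cannot be told apart.

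**Figure D1:**
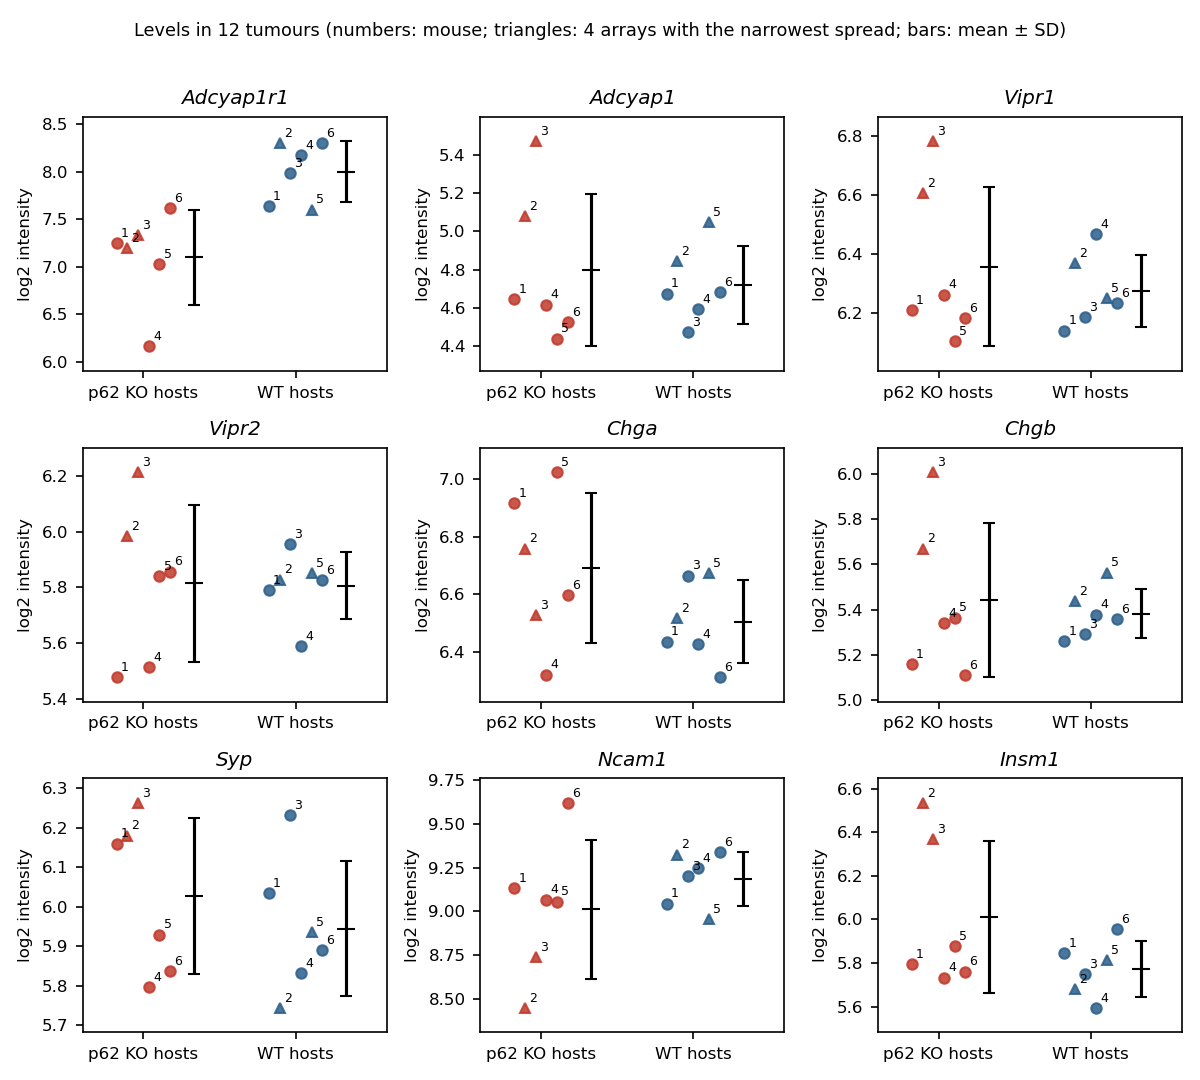
Log2 intensity (vertical axis) of the 9 genes in each tumour, p62 KO hosts on the left and WT hosts on the right of each panel. Points are tumours numbered by mouse, triangles mark the 4 arrays with the narrowest spread, and bars give the mean ± SD of 6 tumours. Adcyap1r1 lies between 6.16 and 7.62 in KO hosts and between 7.60 and 8.30 in WT hosts, while the groups of the other 8 genes overlap widely.

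The ligand and the other receptors of the peptide system gave no difference between hosts that passed the test. Adcyap1, which encodes PACAP, had levels of 4.44, 4.63 and 5.47 (lowest, median and highest) in KO hosts, against 4.47, 4.68 and 5.05 in WT hosts. Its mean of 4.76 over the tumours lies below the lower quartile of probe sets. Vipr1, the VPAC1 receptor, had 6.10, 6.24 and 6.78 in KO hosts, against 6.14, 6.24 and 6.47 in WT hosts. Medians of both genes were thus nearly equal between hosts, and the highest values belonged to KO hosts 2 and 3. Vipr2, the VPAC2 receptor, had 5.48, 5.85 and 6.21 in KO hosts, against 5.59, 5.83 and 5.95 in WT hosts. The limma differences were 0.08 for Adcyap1 (SE 0.17, 95% interval -0.29 to 0.44), 0.08 for Vipr1 (SE 0.12, -0.18 to 0.35) and 0.01 for Vipr2 (SE 0.12, -0.26 to 0.28). A second, dimmer probe set of Vipr1 gave 0.12. Vip, the other ligand, had a mean of 4.29 ± 0.29 in KO hosts and 4.15 ± 0.12 in WT hosts (SD, n = 6 each), a difference of 0.14 (SE 0.13). For Vip it was 0.067 without KO host 3 and -0.043 without KO hosts 2 and 3. None of these 4 passed (limma, adjusted p = 0.9935 to 0.9977), and none had an unadjusted p under 0.05.

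None of the 5 neuroendocrine genes passed either. Chga, which encodes chromogranin A, had levels of 6.32, 6.68 and 7.02 in KO hosts, against 6.31, 6.48 and 6.67 in WT hosts. The 3 highest tumours, KO hosts 5, 1 and 2, lay above all WT tumours, and the lowest of the KO group, host 4, lay at the level of the lowest WT tumour. The means were 6.69 ± 0.26 in KO hosts and 6.51 ± 0.14 in WT hosts (SD, n = 6 each), a difference of 0.19 (SE 0.12, 95% interval -0.08 to 0.45). Chgb, which encodes the second chromogranin of the granule, had 5.11, 5.35 and 6.01 in KO hosts, against 5.26, 5.37 and 5.56 in WT hosts. Its difference was 0.06 (SE 0.14, -0.24 to 0.36), and KO hosts 3 and 2 were the highest tumours.

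Insm1, a zinc finger transcription factor of neuroendocrine cells, had 5.73, 5.84 and 6.53 in KO hosts, against 5.59, 5.78 and 5.95 in WT hosts. KO hosts 2 and 3, at 6.53 and 6.37, stood above the other 10 tumours, which spanned 5.59 to 5.95. The difference was 0.24 (SE 0.14, -0.07 to 0.55) over all tumours and 0.02 without these hosts. Syp, the synaptic vesicle protein synaptophysin, had 5.80, 6.04 and 6.26 in KO hosts, against 5.74, 5.91 and 6.23 in WT hosts, a difference of 0.08 (SE 0.11, -0.16 to 0.32). Ncam1, a neural cell adhesion molecule that is also made outside neural tissue, had 8.45, 9.06 and 9.62 in KO hosts, against 8.96, 9.22 and 9.34 in WT hosts. Its SD was 0.39 in KO hosts and 0.15 in WT hosts, and all the other genes described here also spread more within KO hosts. In Ncam1, KO host 6 was the highest and KO hosts 2 and 3 were the lowest of all 12 tumours. Its difference was -0.17 (SE 0.16, -0.52 to 0.17).

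Of the 8 genes beside Adcyap1r1, 0 passed in the limma comparison of hosts (adjusted p = 0.9935 to 0.9977), against 0.00355% of all probe sets, and 0 had an unadjusted p under 0.05, against 2.39%. The host groups overlapped in all 9 genes, whereas 0.145% of all probe sets had groups without overlap. The signs of the small differences changed when narrow arrays were left out. Over all tumours 7 of 8 differences were above 0, but 3 of 8 were above 0 without KO hosts 2 and 3 and 3 of 8 without all 4 narrow arrays. Adcyap1, Vipr1, Vipr2, Chgb and Syp turned below 0 in both settings, and Ncam1 turned above 0. Chga kept its direction and size, at 0.21 and 0.25, without passing (limma, adjusted p = 0.666 and 0.9908).

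**Figure D2:**
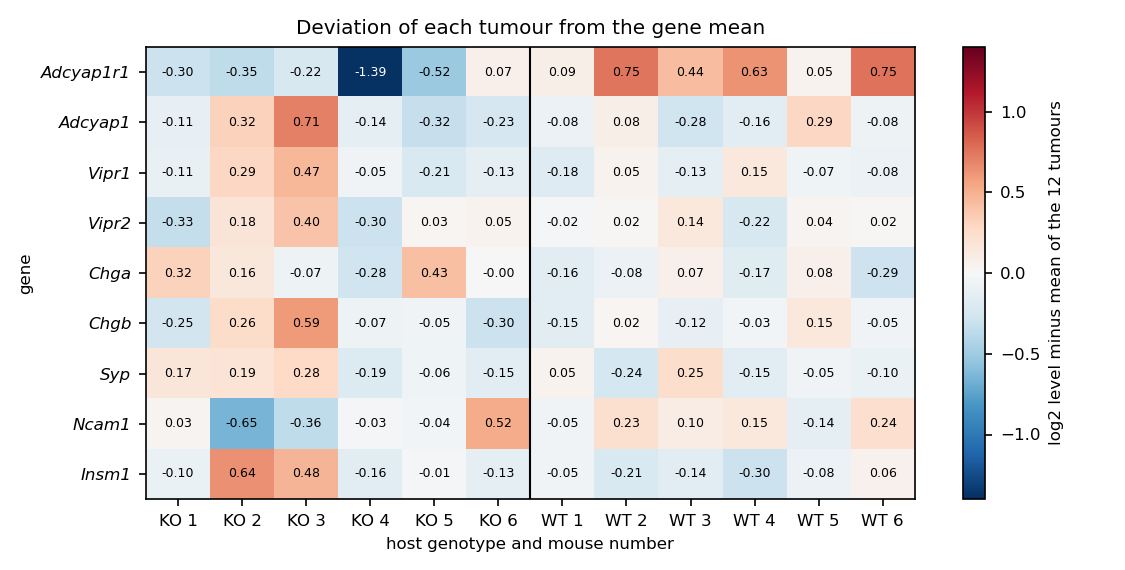
Deviation of each tumour's log2 level from the mean of the 12 tumours, with genes as rows and tumours as columns, p62 KO hosts left of the line and WT hosts right of it. Adcyap1r1 is below its mean in KO hosts 1 to 5 and above it in all 6 WT hosts, while Adcyap1, Vipr1, Vipr2, Chgb and Insm1 are highest in KO hosts 2 and 3.

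The pair from KO hosts 2 and 3 stood above the other 10 tumours in 5 of the 9 genes, namely Adcyap1, Vipr1, Vipr2, Chgb and Insm1. The pair stood lowest in Ncam1, whose probe set is among the 7048 of highest mean level. Adcyap1 is among the 7048 lowest, Vipr2, Chgb and Insm1 are among the next 7048, and Vipr1 is among those after, where the pair stood highest in 21.1%. The part of array spread in the values of these 5 genes was not tested beyond the settings that leave the arrays out.

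Whether the neuroendocrine genes follow Adcyap1r1 from tumour to tumour was asked with the host genotype held as a term, so that the difference between hosts does not enter. In this limma fit the slope is the log2 change of a gene per log2 unit of Adcyap1r1. The fit called 0 of 28191 probe sets, or 0%, and 1.42% had an unadjusted p under 0.05. Slopes of the 8 genes lay between 0.01 for Chgb and 0.23 for Ncam1, 0 passed (adjusted p = 1 for each when rounded) and 0 had an unadjusted p under 0.05. The 95% interval was -0.23 to 0.69 for Ncam1, -0.26 to 0.45 for Chga, -0.40 to 0.43 for Chgb, -0.28 to 0.38 for Syp and -0.31 to 0.54 for Insm1. For the peptide system it was -0.44 to 0.56 for Adcyap1, -0.22 to 0.48 for Vipr1 and -0.17 to 0.54 for Vipr2. All 8 slopes were above 0, against 54.1% of all genes, but they were not stable in sign. Without KO host 4, the tumour lowest in Adcyap1r1, 2 of 8 were above 0, and without KO hosts 2 and 3, 4 of 8.

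**Figure D3:**
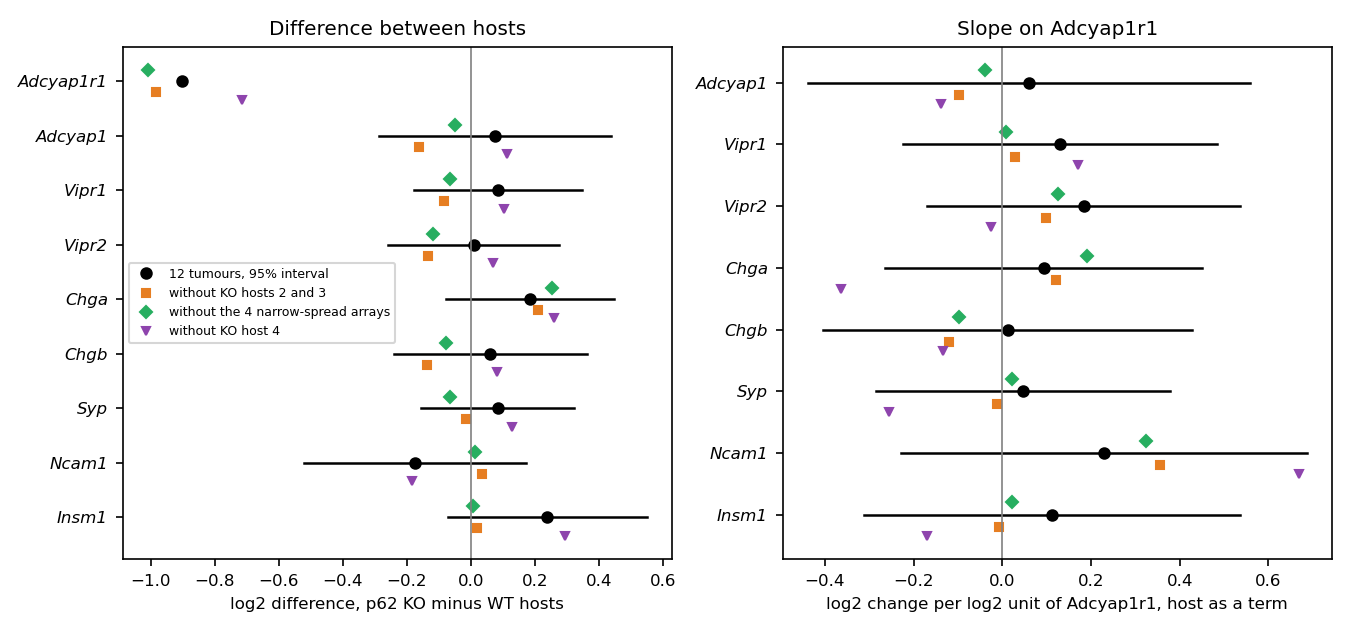
Log2 difference between p62 KO and WT hosts for the 9 genes (left) and log2 change per log2 unit of Adcyap1r1 with host as a term for the other 8 (right). Black points are estimates over 12 tumours, lines are 95% intervals of the 8 genes, with none drawn for Adcyap1r1, and coloured symbols leave out KO hosts 2 and 3, all 4 narrow arrays or KO host 4. The intervals of the 8 genes include 0 in both panels, and the symbols of most genes lie on both sides of 0.

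Plain correlations across the 12 tumours include the host difference of Adcyap1r1, and 8 such relations were computed, 0 of them with a permutation p of Pearson's r under 0.05. Pearson's r with Adcyap1r1 was -0.24 for Insm1 (permutation p = 0.4385; Spearman's rho -0.29, permutation p = 0.353), -0.22 for Chga (p = 0.484; rho -0.51, permutation p = 0.0947) and -0.12 for Syp (p = 0.728; rho -0.23, permutation p = 0.469). It was -0.09 for Chgb (permutation p = 0.778; rho -0.06, p = 0.853), -0.05 for Adcyap1 (p = 0.868; rho 0.05, p = 0.883) and 0.21 for Vipr2 (p = 0.505; rho -0.03, p = 0.922). Vipr1 had an r of -0.00018 (permutation p = 0.9995) and a rho of 0.01 (p = 0.974). Ncam1 had the highest r of the 8, at 0.43 (permutation p = 0.162), with a rho of 0.62 (permutation p = 0.0379). These p-values are unadjusted, and this rho was the only one of the 8 under 0.05.

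Without KO host 4 and WT host 6, the 2 tumours farthest from the median of Adcyap1r1, r was -0.71 for Chga (permutation p = 0.0224), -0.62 for Insm1 (p = 0.0556), -0.49 for Syp (p = 0.152) and 0.54 for Ncam1 (permutation p = 0.11). For the others it was -0.20 (Adcyap1), -0.02 (Vipr1), -0.18 (Vipr2) and -0.20 (Chgb). The change of Chga came with 1 tumour. Leaving out KO host 4 alone, which was low in both Adcyap1r1 and Chga, gave an r of -0.77 (permutation p = 0.00523) and a rho of -0.86 (permutation p = 0.00104) over 11 tumours. This was the lowest r of Chga among the runs with 1 tumour left out. These values and the r of -0.71 still include the host difference that selected Adcyap1r1. Their p-values therefore do not test a relation within hosts. With host held as a term and the same tumour left out, the slope of Chga was -0.36 and did not pass (limma, adjusted p = 0.9998).

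**Figure D4:**
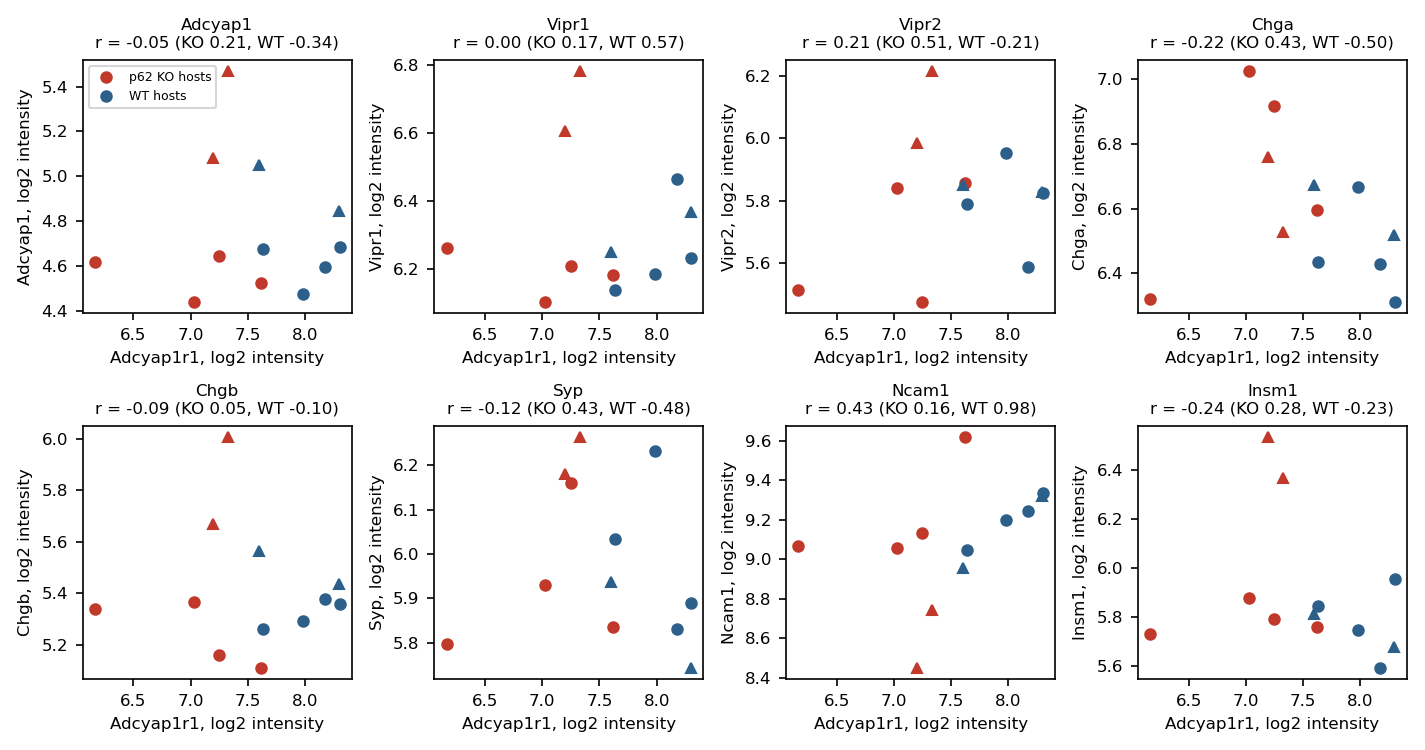
Log2 intensity of each of the 8 genes (vertical) against that of Adcyap1r1 (horizontal), 1 point per tumour, red for p62 KO hosts and blue for WT hosts, with triangles for the 4 narrow arrays. Panel titles give Pearson's r over 12 tumours and within each host group of 6. The WT tumours of Ncam1 lie along a rising line. Chga tends to fall with rising Adcyap1r1 in the tumours of both hosts other than KO host 4. The remaining panels show no line common to all 12 tumours.

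Within WT hosts Ncam1 followed the order of Adcyap1r1. Over the 6 WT tumours both genes had the same order, WT hosts 5, 1, 3, 4, 2 and 6 from low to high, and r was 0.98 (exact permutation p = 0.00139) with a rho of 1 (exact permutation p = 0.00278). Without WT hosts 5 and 1, the 2 farthest from the median, r was 0.96 over 4 tumours, with an exact permutation p of 0.0417, the smallest that 4 tumours can give. Since all 6 tumours share the order, the observed pairing of any 4 gives the highest possible r. This p therefore adds no support. Of 19936 genes, 1 had an r this high with Adcyap1r1 in WT hosts, Ncam1 itself. The order of Adcyap1r1 was shared by 34 genes, or 0.171%, Ncam1 among them, so a shared order was not particular to Ncam1. The exact p-values are not adjusted for the 8 genes examined in each host group. In KO hosts r of Ncam1 was 0.16 (exact permutation p = 0.715; rho 0.31, exact permutation p = 0.564).

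The close relation in WT hosts was noticed after all 8 genes had been set against Adcyap1r1 in each host group, and separate fits were added for it. In WT hosts alone the slope of Ncam1 was 0.48 (SE 0.16, 95% interval 0.10 to 0.85), which did not pass over all probe sets (limma, unadjusted p = 0.0199, adjusted p = 0.979, with 3.25% of probe sets under 0.05 unadjusted). The slope in KO hosts alone was 0.13 (SE 0.33, -0.64 to 0.90). The difference of the 2 slopes, KO minus WT, was -0.35 (SE 0.48, -1.39 to 0.69) and did not pass (limma, adjusted p = 0.958), so a difference between hosts was not shown. In KO hosts the 2 narrow arrays were the lowest in Ncam1, and without them the slope over the remaining 10 tumours with host as a term was 0.36 (limma, adjusted p = 0.9999). Without KO host 6, the highest tumour in Ncam1, it was 0.01, and without KO host 4 it was 0.67, neither passing.

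The other 7 genes showed no such order within a host group. In WT hosts r ranged from -0.50 for Chga (exact permutation p = 0.31) to 0.57 for Vipr1 (exact permutation p = 0.228). In KO hosts it ranged from 0.05 for Chgb (exact permutation p = 0.915) to 0.51 for Vipr2 (exact permutation p = 0.312). With deviations from each host's mean taken over all 12 tumours, r lay between 0.02 for Chgb and 0.35 for Vipr2, with permutation p of 0.39 or higher for all 8.

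The genes whose pattern was most like that of Adcyap1r1 over the 12 tumours lay outside the peptide system. The highest Pearson r among 19936 genes was 0.83 each for Zbtb11os1 and Zfp1, then 0.82 each for Vsig10, Zbtb40 and Ptchd1. Of these Ptchd1 differed most between hosts, at 7.35 ± 0.57 in KO hosts and 7.97 ± 0.30 in WT hosts (SD, n = 6 each). The lowest r was -0.88 for Arsa, -0.86 for Cd200r4, -0.84 for Mctp2, -0.84 for Grb14 and -0.83 for Gabrq. These genes were picked as extremes, and their r carries no test. Ncam1 ranked 511 from the highest of these 19936 genes and Vipr2 ranked 2938, while Insm1 and Chga ranked 16929 and 16673. These ranks include the host difference that selected Adcyap1r1. By r of deviations from the host means, Insm1 and Chga lay at percentiles 73.1 and 74.2, Ncam1 at 88.9 and Vipr2 at 91.3.

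Wider lists of the peptide pathway and of neuroendocrine cells gave no gene that passed. Across 21 lists, 195 genes were measured, Adcyap1r1 among them. Beside Adcyap1r1, limma called 0 of them between hosts and 0 on the slope, with 6 and 4 at an unadjusted p under 0.05. Over all probe sets 2.39% and 1.42% had such a p, and over all genes 466 of 19937 and 275 of 19936. Adcyap1r1 was left out of the list counts but not out of the 19937 genes. Among 21 neuroendocrine markers and granule proteins, 5 of them named above, 18 had a difference above 0 with a median of 0.08, against 55.6% of all genes and a median of 0.02. Without KO hosts 2 and 3, 7 of the 21 were above 0 with a median of -0.07, against 49.4% of all genes. Among 21 measured neuroendocrine transcription factors and regulators, 15 were above 0 with a median of 0.04, and without these hosts 8 were above 0 with a median of -0.08. Of the slopes on Adcyap1r1, 18 of 21 were above 0 among the markers, with a median of 0.05, against 54.1% of all genes. Among the regulators 13 of 21 were above 0, with a median of 0.03. These slope counts were not repeated with tumours left out. The slopes of regulators went both ways, such as 0.33 for Srrm4, a neural splicing factor (SE 0.15, limma unadjusted p = 0.0546), and -0.39 for Rb1 (SE 0.31).

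Other class B receptors differed little. Of 12, such as the glucagon receptor Gcgr and the secretin receptor Sctr, 11 had a difference above 0 with a median of 0.11, and without KO hosts 2 and 3 only 2 did. Of 12 measured G protein and adenylyl cyclase genes 8 were above 0, and of 20 genes of protein kinase A, Epac, CREB and phosphodiesterases 8 were, with medians of 0.06 and -0.02. Without KO hosts 2 and 3, 6 and 14 were above 0. Among 7 genes that process or break down peptides, 2 were above 0. Mme, the membrane peptidase neprilysin, had a mean of 5.56 ± 0.18 in KO hosts and 5.20 ± 0.22 in WT hosts (SD, n = 6 each), a difference of 0.36 (SE 0.12, limma unadjusted p = 0.00911) that did not pass. Cpe, the carboxypeptidase that trims prohormones, differed by -0.21 (SE 0.12) and by -0.06 without KO hosts 2 and 3. Gal, the neuropeptide galanin, differed by 0.29 (SE 0.13) and had a slope of 0.32 (SE 0.15), neither passing.

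Genes that cyclic AMP induces gave no call. Of 12 measured, 9 had a difference above 0, against 55.6% of all genes, with a median of 0.15, and 0 passed. Without KO hosts 2 and 3, 8 were above 0 and the median was 0.085. An unadjusted p under 0.05 was reached by 3 of the 12, against 2.39% of all probe sets. The phosphatase gene Dusp1 averaged 8.79 ± 0.36 in KO hosts and 8.23 ± 0.23 in WT hosts (SD, n = 6 each), while Nr4a1, a nuclear receptor, averaged 7.42 ± 0.35 in KO hosts and 6.97 ± 0.16 in WT hosts. Fos averaged 6.35 ± 0.11 in KO hosts and 6.06 ± 0.25 in WT hosts. Their differences were 0.56, 0.45 and 0.29 (limma unadjusted p = 0.00423, 0.00945 and 0.0246), each without passing (adjusted p = 0.9935). Their slopes on Adcyap1r1 were -0.01, 0.15 and -0.08. Fos is also induced by tissue handling and stands on both lists. All 6 measured handling genes, Fos among them, had a difference above 0, against 55.6% of all genes. Their mean list levels were 7.36 to 7.65 in KO hosts and 7.09 to 7.55 in WT hosts. The part of handling in the values of Dusp1, Nr4a1 and Fos was not tested.

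Markers of other cell types were read beside the members, and the part of these cells in the members' values was not tested. The 11 measured neuron markers had mean levels of 5.42 to 5.85 in KO hosts and 5.48 to 5.77 in WT hosts. Of these 6 had a difference above 0, against 55.6% of all genes, and 3 without KO hosts 2 and 3, where the median was -0.13. The growth cone gene Gap43 had a slope on Adcyap1r1 of 0.69 (SE 0.35) and the neuronal tubulin Tubb3 one of 0.40 (SE 0.21), both larger than any member's slope and neither passing (limma, adjusted p = 1 when rounded). Of the 11 neuron marker slopes 8 were above 0, against 54.1% of all genes, but their median was 0.05. Outside this list, the gland secretion gene Svs2 had a slope of 0.66 (SE 0.28), with a mean level of 4.38, below the lower quartile of probe sets. Syt4, from the list of neuroendocrine markers and granule proteins, had a slope of 0.45 (SE 0.32). The 7 measured Schwann and glial markers had 5.50 to 6.30 in KO hosts and 5.50 to 5.85 in WT hosts, and all 7 were above 0 with a median of 0.16, and 5 were above 0 without KO hosts 2 and 3. The highest mean level of this list was in KO host 1, which was the highest tumour in Sox10, Cdh19 and Erbb3 but not in the other genes of the list. Erbb3, a neuregulin receptor of Schwann cells and epithelia, differed by 0.40 (SE 0.18, limma adjusted p = 0.9935) and by 0.27 without KO host 1. Smooth muscle markers had 7.19 to 7.60 in KO hosts and 7.03 to 7.43 in WT hosts, and skeletal muscle markers had 6.01 to 6.60 in KO hosts and 6.05 to 6.36 in WT hosts. Macrophage markers had 8.98 to 9.82 in KO hosts and 8.94 to 9.74 in WT hosts, with 5 of 6 differences above 0 and a median of 0.16, and 6 of 6 with a median of 0.31 without KO hosts 2 and 3. Endothelial markers had 7.23 to 8.46 in KO hosts and 7.48 to 8.33 in WT hosts, with 2 of 5 above 0 and a median of -0.04, and 4 of 5 with a median of 0.24 without these hosts. None of these macrophage or endothelial genes passed. The T and NK cell markers, of interest because lymphocytes carry Vipr1, had 4.93 to 5.34 in KO hosts and 4.93 to 5.44 in WT hosts. Their Cd8a had a slope on Adcyap1r1 of -0.65 (SE 0.25, unadjusted p = 0.0207), and the fibroblast collagen Col1a2 one of -0.38 (SE 0.16, unadjusted p = 0.0317), neither passing (limma, adjusted p = 1 when rounded). Of the 7 T and NK slopes 1 was above 0, with a median of -0.24, against 54.1% of all genes. Fibroblast markers had 8.94 to 9.79 in KO hosts and 9.22 to 9.81 in WT hosts. Their slopes had no common sign, with 3 of 7 above 0, such as Dcn at 0.25, and a median of -0.004.

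**Figure D5:**
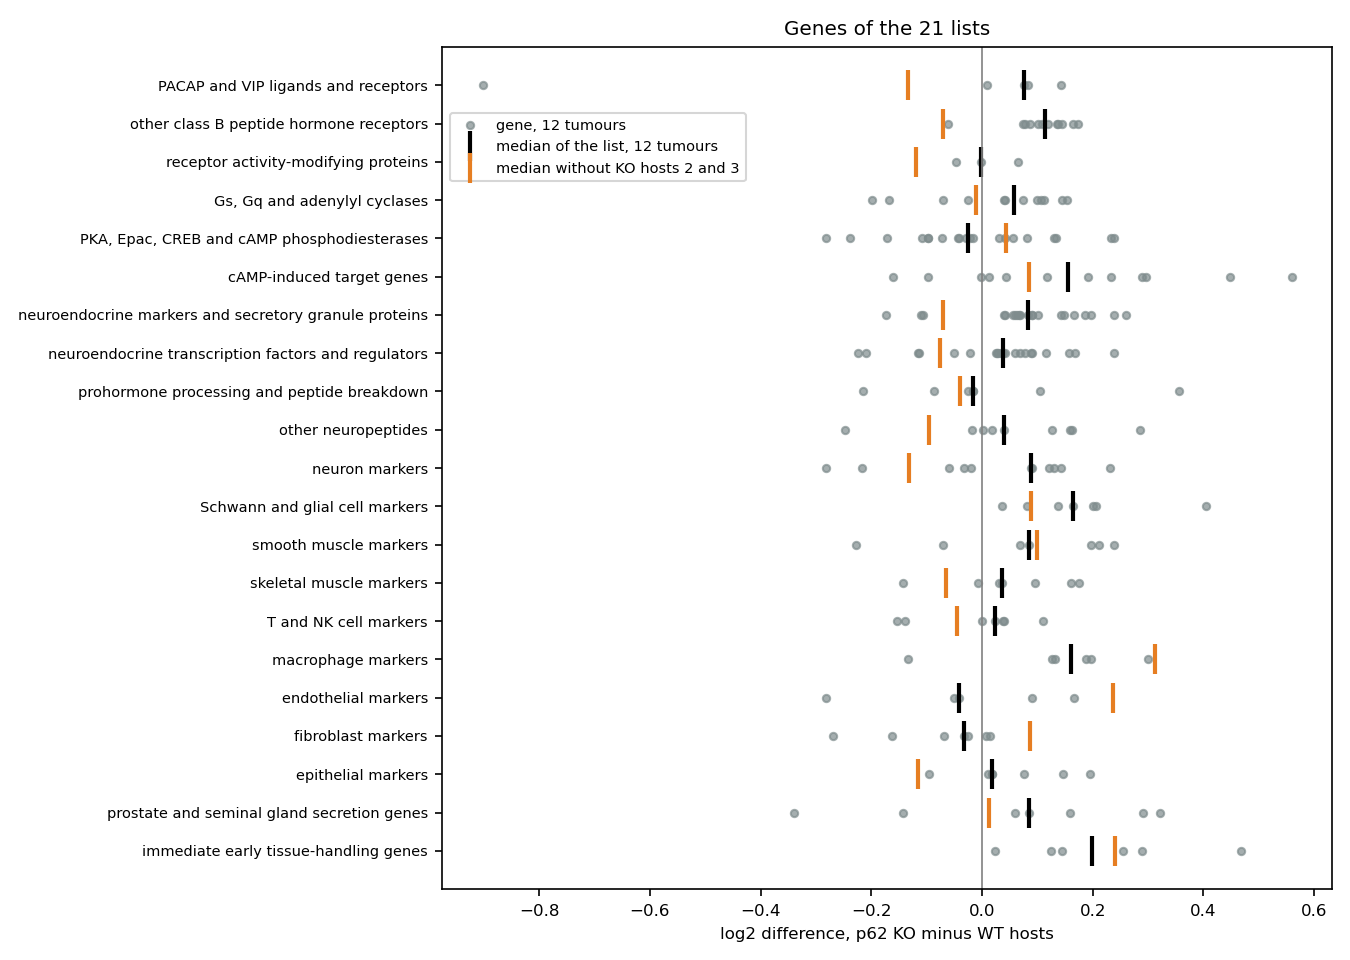
Log2 difference between p62 KO and WT hosts (horizontal) for each measured gene of the 21 lists (grey points), with the median of each list over 12 tumours (black bars) and without KO hosts 2 and 3 (orange bars). Adcyap1r1, at -0.90, is the point far to the left in the first row, and the median of the neuroendocrine markers moves from 0.08 to -0.07 when both hosts are left out.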

How the data were processed

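Total RNA of 12 tumours was taken up in Tri-Zol, then amplified and biotin-labelled with the Ovation Pico WTA System, per the labels' protocols. The authors deposited 1 log2 intensity for each probe set and tumour, made with RMA (robust multi-array average), per the submitters' processing notes, with no version given. Of 34760 table lines, the 6568 of lowest identifier, none of them annotated with a gene, were taken as controls and not tested, a boundary set after the table was seen. Among the 28192 probe sets tested, GEO's platform annotation gives 1 symbol to 21640, several to 1321 and none to 5231. Arrays have no counting depth, so their number limits the precision. The genome build behind the probe sets is not given in the sources used here.

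Hosts were compared as p62 KO minus WT with limma 3.58.1 (R 4.3.3), using lmFit and eBayes and Benjamini-Hochberg adjustment over all tested probe sets. The slope on Adcyap1r1 was fitted with host as a term, and both fits were tested on simulated data. Permutation tests of r and rho were two-sided, with 100000 resamples for 10 or more tumours and exact enumeration below. Genes named were the 9 members, the first 2 measured of each list, up to 3 more by host p and 3 by slope p, and the 5 highest and 5 lowest r with Adcyap1r1. Members and lists were chosen with earlier results of these data known. Alternatives changed the scaling, the filter, the probe sets tested, the eBayes settings, array weights, the array spread as a covariate, and the tumours used. No batch or scan date is given in the labels.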

Additional observations from a re-analysis of the deposited data

How the results depend on the processing

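In every alternative run, 0 of 8 genes passed in the host comparison and 0 of 8 on the slope, and the Adcyap1r1 difference stayed below 0, between -1.01 and -0.71 with 1 tumour left out. An unadjusted limma p under 0.05 was reached by 1 of 8 host differences without KO host 4, against 3.58% of all probe sets. Among slopes it was reached by 1 of 8 without KO hosts 2 and 3 and without all 4 narrow arrays, against 2.75% and 3.47%. With the interquartile range as covariate and with array weights it was also 1 of 8, against 3.64% and 3.54%. Some signs of the 8 genes changed between runs, and the cause was not tested. Adcyap1r1 was selected on its difference in these same tumours, so its stable sign adds no support and is no measure for the 8. With a common median per array, the host difference was -0.026 for Vipr2, and the slope was -0.077 for Adcyap1 and -0.091 for Chgb. With quantile normalization, the host difference was -0.031 for Vipr2, and the slope was -0.027 for Syp, and r was 0.014 for Adcyap1 and 0.048 for Vipr1. With array weights, the host difference was -0.10 for Adcyap1, -0.062 for Vipr1, -0.076 for Vipr2, -0.072 for Chgb and -0.0059 for Syp, and the slope was -0.038 for Adcyap1, -0.037 for Chgb, -0.087 for Syp and -0.045 for Insm1. With the interquartile range as covariate, the host difference was -0.0060 for Adcyap1, -0.029 for Vipr2 and -0.00070 for Chgb, and the slope was -0.030 for Adcyap1 and -0.055 for Chgb. Without KO hosts 2 and 3, the host difference was -0.16 for Adcyap1, -0.085 for Vipr1, -0.13 for Vipr2, -0.14 for Chgb, -0.014 for Syp and 0.034 for Ncam1, and the slope was -0.097 for Adcyap1, -0.12 for Chgb, -0.012 for Syp and -0.0079 for Insm1, and r was 0.21 for Adcyap1, 0.38 for Vipr1, 0.16 for Chgb and 0.015 for Syp. Without all 4 narrow arrays, the host difference was -0.050 for Adcyap1, -0.067 for Vipr1, -0.12 for Vipr2, -0.079 for Chgb, -0.066 for Syp and 0.011 for Ncam1, and the slope was -0.038 for Adcyap1 and -0.097 for Chgb, and r was 0.10 for Adcyap1, 0.27 for Vipr1, 0.046 for Chgb, 0.21 for Syp and 0.035 for Insm1. With the mouse number as a replicate block, the slope was -0.043 for Adcyap1, -0.023 for Vipr2 and -0.12 for Insm1, and r was 0.35 for Vipr1, -0.069 for Vipr2, 0.62 for Chga, 0.0018 for Chgb and 0.020 for Syp. With deviations from host means, r was 0.079 for Adcyap1, 0.26 for Vipr1, 0.19 for Chga, 0.020 for Chgb, 0.11 for Syp and 0.18 for Insm1. With the interquartile range taken out, r was 0.045 for Vipr1. Without KO host 4 and WT host 6, r was -0.18 for Vipr2. The number of correlations with a permutation p under 0.05 was 0 over all tumours and 1 in 3 settings, namely r = 0.63 for Ncam1 with the interquartile range taken out (permutation p = 0.0259), r = 0.62 for Chga with the replicate block, and r = -0.71 for Chga without KO host 4 and WT host 6. With 1 tumour left out at a time, that number was 0 to 1. In the same runs the host difference ranged over -0.072 to 0.076 for Vipr2, -0.058 to 0.15 for Adcyap1, -0.0014 to 0.13 for Vipr1, -0.053 to 0.13 for Chgb, the slope over -0.13 to 0.16 for Chgb, -0.14 to 0.19 for Adcyap1, -0.025 to 0.22 for Vipr2, -0.36 to 0.16 for Chga, -0.25 to 0.14 for Syp, -0.17 to 0.25 for Insm1, and r over -0.22 to 0.049 for Adcyap1, -0.095 to 0.12 for Vipr1, -0.17 to 0.36 for Vipr2, -0.77 to -0.081 for Chga, -0.52 to 0.054 for Syp. Same-numbered mice correlated at 0.14, 0.37, -0.55, 0.37, -0.54 and 0.34 in their deviations, and 0 of 6 correlated best with its own number, so the numbers were not taken as pairs. The filter on dim probe sets removed Adcyap1 and gave no value for it. Dim signal limits what can be seen of Adcyap1 and Vip, which both lie below the lower quartile of probe sets. By mean level, Chgb, Vipr2, Insm1 and Syp lie at percentiles 32.2, 40.2, 41.8 and 43.8 of probe sets, so weak signal may limit these too. Of the 21 neuroendocrine markers 4 lie below the lower quartile, and of the 21 measured regulators 5 do.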
